A study of Homo sapiens with 10 samples.

Results

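Open chromatin of MDAMB231 cells was described from the complete list of FAIRE peaks, which held 46552 regions out of 128837 in the 4 peak lists of the series. Every row of the deposited FAIRE list was kept, with its bounds and its height. MDAMB231 is an established human breast cancer line of mesenchymal-like character, grown here in medium with 5% FBS and given no treatment. The series has 10 samples, of which 2 were FAIRE samples and 1 was their input, while ChIP-seq of H3K27Ac, H3K4me1 and H3K4me3 had 2 samples each and shared 1 ChIP input. The list combines both FAIRE samples against their input, so a peak has 1 height and no replicate error, and the read depth behind it is unknown from the list.

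FAIRE takes advantage of the fact that formaldehyde links histones to DNA efficiently, so that DNA with few nucleosomes stays in the aqueous phase when the chromatin is extracted with phenol and chloroform. The cells were crosslinked with 1% formaldehyde. Nucleosome-depleted sequence is typical of active promoters, enhancers and sites bound by insulator proteins. H3K4me3 is known as a mark of promoters, H3K4me1 of enhancers and sequence flanking promoters, and H3K27Ac of active promoters and enhancers.

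Sequences from the centre of 4 tall FAIRE peaks are given as examples. These peaks were chosen for a motif and do not stand for tall peaks in general. They are the tallest intron, intergenic and start-site peaks with an AP-1 motif in the central 200 bp, and the tallest peak with a CTCF motif there and none of the 3 marks. Windows with an annotated exon and windows on a chromosome left out by rule were passed over. Each sequence is from the plus strand of the GRCh37 reference, 5′ to 3′, and capitals mark the motif on either strand. The intron peak had a height of 220 and lay in TRERF1, a transcriptional regulator gene, at chr6:42306600-42306799. The intergenic peak, with a height of 211, was 7521 bp upstream of the nearest protein-coding start site, that of the cell cycle kinase gene WEE1, at chr11:9587596-9587795, and held 2 AP-1 motifs. The start-site peak, at chr5:127270524-127270723, had a height of 181 and was 311 bp upstream of a start site of CCDC192. All 3 carried H3K4me1 and H3K27Ac. The CTCF example had a height of 148 and lay in an intron of PDE4DIP at chr1:145059125-145059324.
TRERF1 intron: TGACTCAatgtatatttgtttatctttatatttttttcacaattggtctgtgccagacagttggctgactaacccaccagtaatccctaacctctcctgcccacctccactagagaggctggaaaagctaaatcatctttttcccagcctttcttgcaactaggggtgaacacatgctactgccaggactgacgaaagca
WEE1 upstream: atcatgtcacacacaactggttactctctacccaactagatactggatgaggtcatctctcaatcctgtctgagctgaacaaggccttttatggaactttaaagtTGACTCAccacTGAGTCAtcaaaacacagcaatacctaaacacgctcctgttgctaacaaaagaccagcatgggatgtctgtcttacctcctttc
CCDC192 start site: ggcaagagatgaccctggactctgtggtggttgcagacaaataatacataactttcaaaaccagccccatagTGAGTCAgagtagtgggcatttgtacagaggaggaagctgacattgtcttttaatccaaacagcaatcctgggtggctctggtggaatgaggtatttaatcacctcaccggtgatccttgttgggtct
PDE4DIP intron: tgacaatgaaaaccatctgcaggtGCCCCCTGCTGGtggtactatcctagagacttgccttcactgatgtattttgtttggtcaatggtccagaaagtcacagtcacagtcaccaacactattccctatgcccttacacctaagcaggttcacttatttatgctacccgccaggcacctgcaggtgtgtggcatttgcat

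Height is the value that the peak caller gave each peak, a signal without a stated scaling. It ran from 14 to 235, with quartiles of 47.1 and 83.3. Taller peaks were also wider and had a higher GC content, with Spearman correlations of 0.28 between height and width and 0.205 between height and the GC content of the central 300 bp. These are descriptions over 46552 peaks that share the same libraries and lie next to each other on chromosomes. Together they spanned 1.57% of the known bases on chromosomes 1 to 22, X and Y.

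Peak heights differed between chromosomes. Among chromosomes 1 to 22 and X, the lowest peak ranged from 15.2 on chromosome 18 to 35.6 on chromosome 20, and the median ranged from 37.4 on chromosome 18 to 77.1 on chromosome 20. The median of chromosome X was 37.8. The lowest height and the median rose together (Spearman correlation 0.982 over 23 chromosomes), and their ratio stayed between 0.407 and 0.481. The share of peaks without any mark tended to be lower where the chromosome median was higher (Spearman correlation -0.806), and ranged from 35.5% on chromosome X to 13.5% on chromosome 19. Chromosome 20, with the highest median, went against this with 20.3%. Arms of some chromosomes also differed. The median was 68.3 on the short arm of chromosome 6 and 52.5 on its long arm, while the lowest heights of these arms were 27.5 and 27.1. On chromosome X the short arm had a median of 29.99 and the long arm 43.3, and the lowest heights were 16.6 and 16.2. The arms of chromosome 20 had medians of 68.1 and 81.5, with lowest heights of 35.9 and 35.6. On chromosome 18 the lowest height differed as well, with medians of 43.0 and 35.6 and lowest heights of 18.5 and 15.2. The arms of chromosome 19 had lowest heights of 40.5 and 35.5 with medians of 73.2 and 74.3. The files do not state whether a threshold was set for each chromosome, so a region without a peak is one where none was listed. What sets chromosomes apart in height was not tested. A scaled height, which is the height divided by the median of its chromosome, was chosen after seeing these values. Where it is not given, heights are as deposited and carry the difference between chromosomes.

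**Figure D1:**
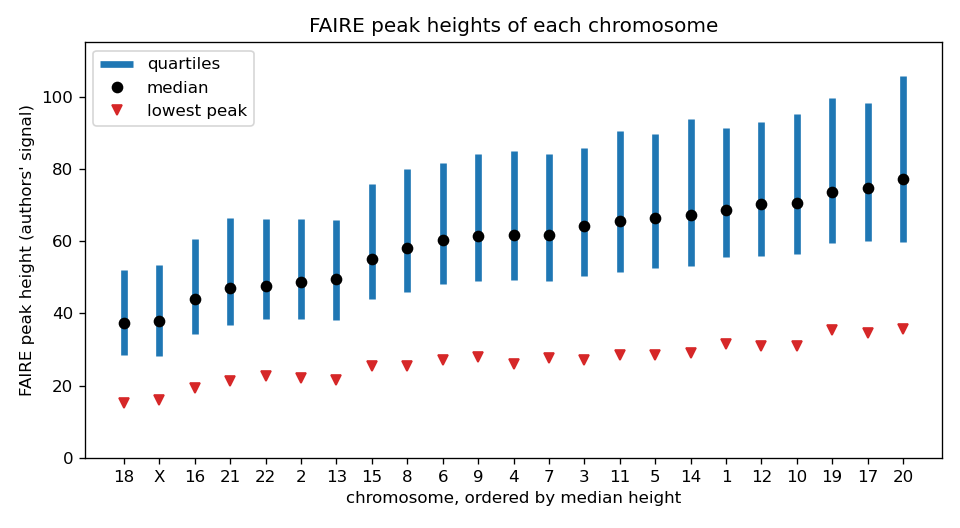
FAIRE peak heights (authors' signal) for chromosomes 1 to 22 and X, ordered by median. Bars span the quartiles over peaks, circles are medians and triangles are the lowest peak, and both the median and the lowest peak rise from chromosome 18 (37.4 and 15.2) to chromosome 20 (77.1 and 35.6).

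Position in the gene annotation was read at the peak centre. Of all FAIRE peaks, 22235 (47.8%, 95% Wilson interval 47.3% to 48.2%) lay in introns, 12230 (26.3%, 25.9% to 26.7%) were intergenic and 8558 (18.4%, 18.0% to 18.7%) lay at start sites, a window that begins 1 kb before the first base of a transcript and ends 100 bp after it. The intervals cover counting error only. Start-site windows made up 4.55% of the sequence, so peaks were densest there, with 65.8 per Mb against 15.0 per Mb in introns and 11.9 per Mb in intergenic sequence. Transcript ends held 2018 peaks and exons 1511. With transcripts of protein-coding genes only, 41.6% of peaks were intergenic.

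Height differed little between these classes. The median was 64.4 at start sites, 60.4 in introns and 60.2 in intergenic sequence, and the quartiles overlapped widely (49.3 and 88.1, 46.5 and 82.3, and 46.5 and 82.1). On the scaled height the medians were 1.04, 0.993 and 0.992. The start-site median was above the intron median on 17 of 23 chromosomes and above the intergenic median on 19. Intron peaks stood above intergenic peaks on 10. Start-site peaks were narrower, with a median width of 841 bp against 931 bp in introns, and richer in GC, with medians of 54% and 42.3%.

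Around protein-coding start sites the peaks sat on the upstream side. Of 9978 peaks with a centre within 2 kb of the nearest such site, 65.8% were upstream, and the median offset was -77 bp. The bin of 100 bp just upstream held the most, 1988 peaks. The tallest medians near the start were not in that bin (62.5) but from 300 to 400 bp upstream, where 456 peaks had a median of 70.7. Marks changed with distance too. Within 200 bp of a protein-coding start site 87.8% of peaks carried H3K4me3 and 20.3% carried H3K4me1, whereas from 50 to 100 kb away these shares were 6.98% and 64.4%.

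Median heights differed more between classes of marks than between classes of position. A mark was counted where the FAIRE peak and a histone peak shared at least 1 base. The largest class, with H3K4me1 and H3K27Ac, held 19162 peaks (41.2%, 95% Wilson interval 40.7% to 41.6%) and had the highest median, 70.5, with quartiles of 53.6 and 94.5. Peaks with all 3 marks (2752) had a median of 68.9, those with H3K4me3 and H3K27Ac (6774) 62.5 and those with H3K27Ac alone (4739) 61.5. The median was 56.5 for H3K4me1 alone (3595) and 54.6 for H3K4me3 alone (369). Peaks with no mark (9126) had the lowest median, 47.8, with quartiles of 38.0 and 58.7. On the scaled height the class with H3K4me1 and H3K27Ac had a median of 1.16 and the class with no mark 0.806, and the first was above the second on 23 of 23 chromosomes. H3K4me1 and H3K4me3 without H3K27Ac were found together on only 35 peaks, with a median of 59.4.

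**Figure D2:**
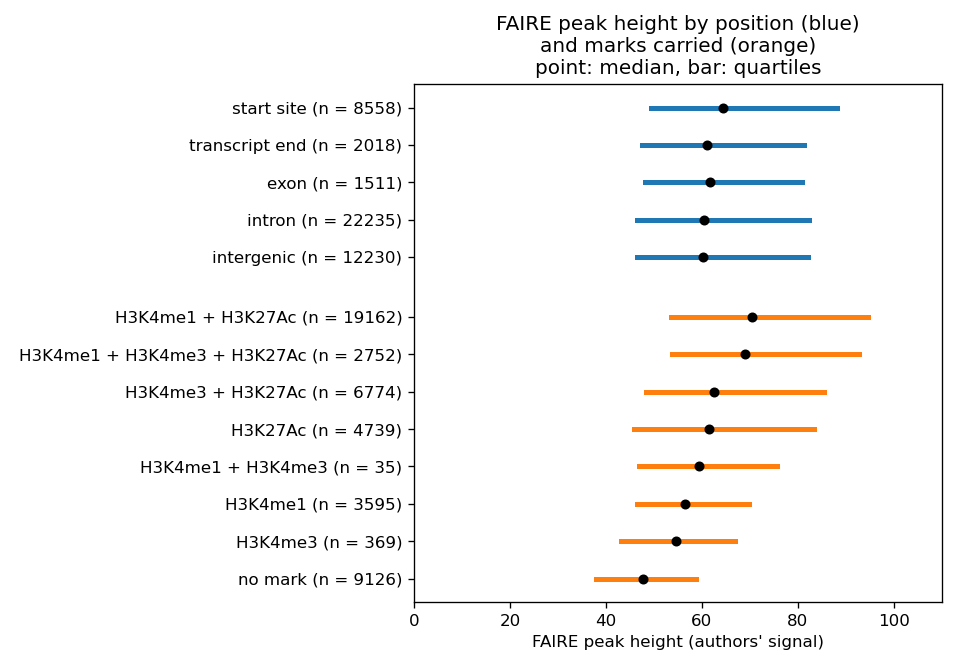
Median FAIRE peak height (authors' signal, points) with quartiles over peaks (bars) for position classes in blue and mark classes in orange. Medians of position classes lie between 60.2 and 64.4, and those of mark classes between 47.8 and 70.5.

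Peaks with H3K4me1 and H3K27Ac were also taller than peaks without a mark within each position class. Among intergenic peaks the median was 71.7 with H3K4me1 and H3K27Ac (5534 peaks) and 48.5 without a mark (3199 peaks), and among intron peaks it was 70.1 (11072) and 46.8 (4622). At start sites, 1082 peaks with H3K4me1 and H3K27Ac but no H3K4me3 had a median of 72.0, above the 64.4 of the 5220 start-site peaks with H3K4me3 and H3K27Ac. Only 498 start-site peaks (5.82%) had no mark, and their median was 49.4. In intergenic sequence the share without a mark was 26.2%.

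When the list was divided into 10 classes of equal size by height, the share with H3K27Ac rose at every step, from 47.8% in the lowest class to 95.5% in the tallest. H3K4me1 rose from 28.3% to 71.3% in the class before the tallest and was 70.0% in the tallest. In classes of scaled height H3K4me1 rose at this last step as well, from 69.1% to 71.9%. H3K4me3 changed least, from 17.0% to 25.02%. Without any mark were 44.5% of the lowest class and 1.95% of the tallest, or 91 peaks of 4656. With classes made from the scaled height these shares were 43.5% and 2.32%. The scores of H3K27Ac and H3K4me1 peaks moved the same way: with 4 classes of height, the median H3K27Ac score was 750 at the lowest peaks and 1528 at the tallest, and for H3K4me1 it was 123 and 227. A score is minus 10 times the log10 of a p-value. The median H3K4me3 score was 3100 in each class, which is also the median of H3K4me3 peaks with no FAIRE peak, so it shows nothing about height.

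**Figure D3:**
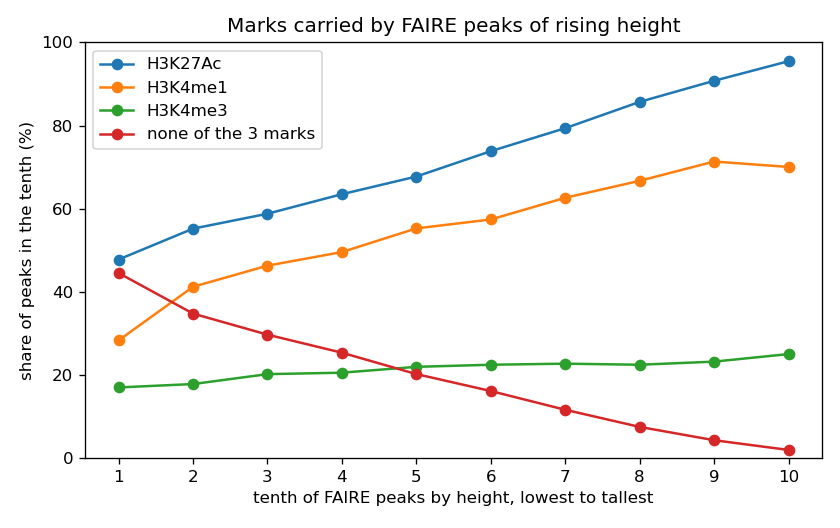
Share of FAIRE peaks (percent) with H3K27Ac, H3K4me1, H3K4me3 or none of the 3 marks in 10 classes of equal size, from lowest to tallest. H3K27Ac rises from 47.8% to 95.5% and peaks without a mark fall from 44.5% to 1.95%.

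Seen from the histone lists, a FAIRE peak was present at 71.4% of 26767 H3K4me1 peaks (95% Wilson interval 70.8% to 71.9%), 68.2% of 37483 H3K27Ac peaks (67.7% to 68.7%) and 45.3% of 17996 H3K4me3 peaks (44.6% to 46.0%) on chromosomes 1 to 22, X and Y. Counting only the taller FAIRE peaks, from the list median upward, gave 46.9%, 44.01% and 26.8%. Wide histone peaks had one more often. In the narrowest and widest of 4 width classes the shares were 50.1% and 89.9% for H3K4me1, 51.9% and 86.1% for H3K27Ac, and 32.2% and 63.3% for H3K4me3. FAIRE peaks per kb of histone peak were fewer in the widest class than in the narrowest, with 0.243 and 0.269 for H3K4me1, 0.269 and 0.322 for H3K27Ac, and 0.206 and 0.282 for H3K4me3. The fall with width was not steady, and for H3K4me3 the middle classes were lowest, with 0.195 and 0.187. The tallest FAIRE peak in a histone peak had a median of 56.3 in the narrowest H3K4me1 class and 91.9 in the widest. These medians were 57.6 and 87.3 for H3K27Ac, and 64.05 and 71.9 for H3K4me3. The tallest was taken over more peaks in the widest class, with means of 0.516 and 1.64 FAIRE peaks per H3K4me1 peak. FAIRE centres lay near the middle of histone peaks. On a scale with 0 at the middle and 1 at the edge, the median place was 0.247 for H3K27Ac, 0.254 for H3K4me1 and 0.363 for H3K4me3.

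Neighbouring peaks on chromosomes 1 to 22 formed 44680 pairs. The median distance between centres was 20548.5 bp, and 35.0% of pairs were within 10 kb and 85.9% within 100 kb. Between peaks at or above the median height the median distance was 34351 bp. In bins of 0.1 on the log10 scale the counts had a larger mode from 4.6 to 4.7 (2533 pairs) and a smaller one from 2.9 to 3 (1233 pairs). Many subpeaks touched: 3623 pairs (8.11%) had edges that met with no base between, whereas only 28 pairs were 1 to 100 bp apart. In addition 5 peaks are listed again with the same bounds. Touching and overlapping subpeaks joined gave 41074 regions from 44702 peaks.

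**Figure D4:**
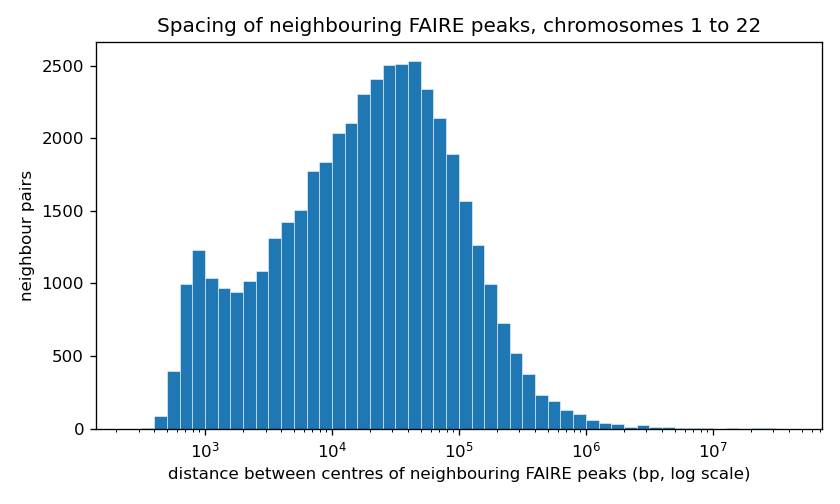
Number of neighbour pairs of FAIRE peaks on chromosomes 1 to 22 by distance between centres (bp, log scale, bins of 0.1 on the log10 scale). The 44680 pairs have a median of 20548.5 bp and a smaller mode just under 1000 bp.

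Marks and height both varied with spacing. Peaks whose edge met that of a neighbour carried H3K27Ac in 97.4% of cases and had no mark in 0.828%, and their median height was 66.4 (1.06 on the scaled height). Among peaks with the nearest edge 100 to 500 kb away, 47.6% carried H3K27Ac, 40.7% had no mark and the median height was 53.5 (0.866 on the scaled height). The nearest neighbour was at a median of 2595 bp for peaks with all 3 marks, 4312.5 bp for those with H3K4me1 and H3K27Ac and 19076 bp for those without a mark. Of pairs within 2 kb, 1.30% had no mark on either peak, compared with 13.2% of pairs over 200 kb apart. The heights of neighbours were almost unrelated, with a Spearman correlation of scaled heights of 0.0622 within 2 kb and 0.0572 over 200 kb.

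The 5 windows of 50 kb with the most peaks held 14 or 15 each, all with H3K27Ac. One with 15 peaks, from 3804312 to 3854311 on chromosome 10, holds KLF6, a zinc finger transcription factor gene, and 14 of its peaks carried H3K4me1. The other with 15, from 61991136 to 62041135 on chromosome 14, lies at PRKCH, a protein kinase C gene. Its peaks were tall, with a median of 102, but 1 of them carried H3K4me1 and 1 H3K4me3. Windows with 14 peaks lay at SYNJ2 on chromosome 6, at the noncoding RNA gene MALAT1 on chromosome 11 and at DLGAP1 on chromosome 18. At DLGAP1, 13 of the 14 peaks carried H3K4me1 and 13 carried H3K4me3.

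The longest distance between neighbours apart from those over a centromere was 7.72 Mb, on chromosome 21 from 19221859 to 26945953. This interval holds 3 protein-coding genes, CHODL, TMPRSS15 and NCAM2, and 2 H3K4me3 and 2 H3K27Ac peaks. A shorter interval was singled out after its values were seen: 5.53 Mb on chromosome 9 from 20732593 to 26259455 had no FAIRE peak. In the annotation it holds 25 protein-coding genes, among them the interferon alpha genes, MTAP and the cell cycle inhibitor genes CDKN2A and CDKN2B. It held 0 H3K4me1, 2 H3K4me3 and 3 H3K27Ac peaks. Whether all of this sequence is present in the cells was not tested, so the lack of a listed peak does not show closed chromatin.

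The tallest peak of the list by deposited height had a value of 235 and lay 0.342 kb upstream of the start site of SP1 (ENSG00000185591), a zinc finger transcription factor gene, on chromosome 12 from 53773077 to 53774159. Next were an intron peak of PMEPA1, a gene known to be induced by TGF-beta, with a height of 227, and start-site peaks of ARID4A, HNRNPUL1 and PIGT with heights of 226, 225 and 225. The PIGT peak carried H3K4me1 and H3K27Ac without H3K4me3. The other 5 of the 10 tallest were away from start sites, in introns of TRERF1 (220), SVIL (218) and ARHGAP32 (217), in an exon of TPRG1 (217) and in an intergenic region of chromosome 3 (219) at 28.3 kb from LINC02038. These 5 carried H3K4me1 and H3K27Ac. On the scaled height the order was another: TRERF1 (3.65), the intergenic peak (3.41), TPRG1 (3.38) and ARID4A (3.36) stood above SP1 (3.34), and the highest value of the list, 4.72, was at a peak outside these 10.

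Tall peaks without a mark were few. The tallest had a height of 194 and was intergenic on chromosome 20 from 46092843 to 46094127, at 37.1 kb from a start site of NCOA3, a nuclear receptor coactivator gene. Of the next 4, at 177, 169, 166 and 163, the nearest protein-coding start sites were those of PTK2, STX16, NAT16 and BCAS1. On the scaled height these 5 peaks were 2.11 to 3.04 times the median of their chromosome. The tallest peak with H3K4me1 alone, at 175, was 9.38 kb from a start site of the collagen gene COL9A1, and the tallest with H3K4me3 alone, at 156, was in an intron of ACBD7. With H3K4me1 and H3K4me3 the tallest was 120, at 10.4 kb from WNT5B, with all 3 marks 208, at NUDT2, and among transcript ends 217, at UQCC1.

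Motifs were sought on both strands in the central 300 bp and in windows of the same length 5 kb to the right, of which 5.62% shared a base with a FAIRE peak. The AP-1 motif TGANTCA, the site of FOS and JUN family dimers, was in 39.2% of FAIRE peaks (95% Wilson interval 38.7% to 39.6%) and in 9.47% of windows away. The CTCF motif was in 2.39% and 0.142%. The ETS motif CCGGAAG was in 3.46% and 0.866%, the SP/KLF motif GGGCGG in 11.7% and 5.42%, the RUNX motif TGTGGTT in 10.6% and 5.48%, and the TEAD motif GGAATG in 21.4% and 15.8%. The motifs TGACGTCA (CRE) and TTGCGCAA (CEBP) were rare, with 0.683% and 0.146% of peaks against 0.105% and 0.0279% of windows away. Shares of CACGTG (E-box) were 4.58% and 2.995%, of TGTTTAC (forkhead) 6.03% and 4.22%, and of the NF-kB motif 3.43% and 2.71%. Shares were 38.1% and 35.5% for CCAAT (NF-Y) and 17.2% and 19.1% for the GATA factor motif AGATAA. For a single unit of the p53/p63 motif they were 8.27% and 7.80%, and the full motif was not counted. A match is a description of the letters in the window and not a bound site.

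AP-1 and CTCF motifs were most frequent at the peak centres. AP-1 matches numbered 94.3 per 1000 peaks in the 50 bp to the right of the centre and 17.5 per 1000 in the 50 bp that end 500 bp from it. CTCF matches fell from 5.28 to 0.129 per 1000.

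Motif shares differed in degree between start-site peaks and those in introns or intergenic sequence. AP-1 was in 43.8% of intron and 43.9% of intergenic peaks but in 19.1% of start-site peaks. In windows away these shares were 9.56%, 10.1% and 8.73%, so AP-1 was above them in each class. SP/KLF was in 40.5% of start-site peaks and 6.87% of their windows away, but in intron peaks the shares were 4.65% and 4.81% and in intergenic peaks 5.12% and 4.97%, so its excess over windows away was small or absent in these. The same held for NF-Y, with 43.8% and 32.3% at start sites, 36.4% and 35.9% in introns and 38.0% and 37.4% in intergenic sequence. GATA was at 10.6% and 17.4% at start sites, and at 18.9% and 19.8% in introns and 18.8% and 19.3% in intergenic sequence. Among start-site, intron and intergenic peaks, ETS was in 12.3%, 1.29% and 1.59%, with 1.215%, 0.756% and 0.8585% in windows away. CRE was in 2.30%, 0.301% and 0.352%, with 0.140%, 0.103% and 0.0899% in windows away. Start-site peaks were also richer in GC, and the part of GC content in these shares was not tested.

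By marks, AP-1 was in 49.2% of peaks with H3K4me1 alone, 47.1% with H3K4me1 and H3K27Ac, 47.0% with H3K27Ac alone and 36.9% with no mark, but in 13.3% with H3K4me3 and H3K27Ac. Peaks with an AP-1 motif were taller where H3K4me1 and H3K27Ac were carried, with medians of 73.6 and 67.9 with and without the motif (1.21 and 1.12 on the scaled height). They were also taller with all 3 marks (72.85 against 66.88), with H3K27Ac alone (62.67 against 60.19) and with H3K4me1 alone (57.31 against 55.7). Among peaks without a mark these medians were 48.4 and 47.4 (0.827 and 0.796). With H3K4me3 and H3K27Ac they did not differ in this way (62.3 and 62.5, scaled 1.02 and 1.01), and with H3K4me3 alone, where 43 peaks had the motif, they were 50.5 and 54.7 (scaled 0.907 and 0.867). The CTCF motif went the other way. It was in 8.32% of peaks without a mark and in 0.569% of those with H3K4me1 and H3K27Ac, and of the 1111 peaks with the motif 759 (68.3%) had no mark, against 19.6% of the whole list. The small class with H3K4me3 alone also had it often, in 35 of 369 peaks (9.49%). Over 4 classes of height, from lowest to tallest, the share with CTCF fell from 3.88% to 0.756%, while that with AP-1 rose from 35.2% to 44.2%. Among peaks without a mark, those with and without the CTCF motif had medians of 47.9 and 47.8 (0.786 and 0.808 on the scaled height). Other classes differed in direction. Peaks with the motif were lower where H3K4me1 and H3K27Ac were carried (60.8 against 70.5, 109 with the motif) and with H3K4me3 and H3K27Ac (54.7 against 62.6, 82 with the motif). They were also lower with all 3 marks (67.1 against 68.9, 20 with the motif) and with H3K4me3 alone (51.8 against 55.2, 35 with the motif). They were slightly higher with H3K27Ac alone (62.05 against 61.45, 52 with the motif) and with H3K4me1 alone (57.03 against 56.45, 53 with the motif).

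**Figure D5:**
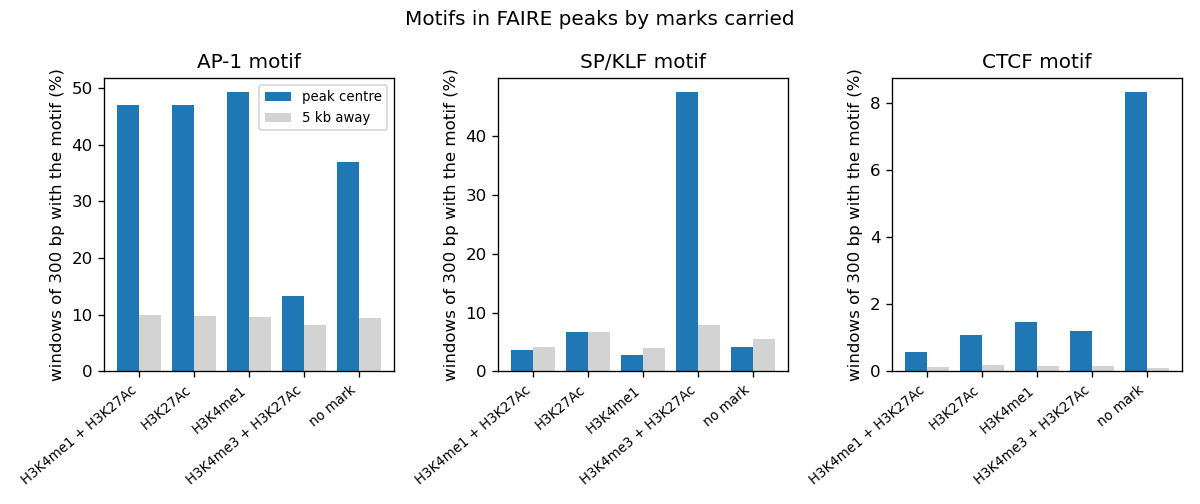
Share of 300 bp windows (percent) with the AP-1, SP/KLF or CTCF motif at the centre of FAIRE peaks (blue) and 5 kb to the right (grey) in 5 mark classes, with a separate axis for each motif. SP/KLF stands out with H3K4me3 and H3K27Ac (47.4%) and CTCF in peaks without a mark (8.32%).

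Of 20162 protein-coding genes, 7908 (39.2%) had a FAIRE peak with any base within 1 kb, on either side, of an annotated start site, with a median height of 69.2 for the tallest of each gene. With peaks at or above the median height only, 24.3% of genes had one. Gene lists are read beside this share and without a test, and a peak near a start site is not expression. This window is wider than the start-site class above, so some of these peaks have their centre in an intron (FN1, ZEB1, CLDN4, AFP), an exon (TEAD1, IL6, CSF2), a transcript end (JUND, SPARC, COL17A1) or intergenic sequence (GCG). The start of any annotated transcript counted, so a start site can lie inside the gene. No main promoter was picked, and a peak counted here need not be at it. Housekeeping genes had one in 11 of 12 cases, and genes of other tissues in 2 of 12, AFP (88.4) and GCG (47.8). The ribosomal protein gene RPLP0 (143) had a tall peak, while the actin gene ACTB (45.6) and GAPDH (58.2) did not, and TUBA1B had none.

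Genes of mesenchymal and invasive cells had a peak near a start site in 11 of 14 cases. The tallest were at PLAU (156), which encodes urokinase, and at the hyaluronan receptor gene CD44 (128). The intermediate filament gene VIM had a height of 84.0, FN1, which encodes fibronectin, 89.7 and the repressor gene ZEB1 72.0. The peaks of PLAU and VIM carried all 3 marks. That of CD44 carried H3K4me1 and H3K27Ac, and those of FN1 and ZEB1 H3K27Ac alone, so these 3 were without H3K4me3. Lower ones were at ZEB2 (40.5), LOX (53.7) and SPARC (55.6), each under the median of its chromosome, with 0.832, 0.81 and 0.837 on the scaled height. CDH2, SNAI2 and TWIST1 had none near a start site. Inside the genes, taken as the full span of all their annotated transcripts, CDH2 held 10 peaks (tallest 108) and TWIST1 1 (85.6). No peak lay closer than 37.05 kb to a TWIST1 start site, so the 1 within its span was at least that far from each. Epithelial adhesion genes had one in 5 of 12 cases. The E-cadherin gene CDH1 had a height of 31.7 at one of its start sites (0.723 on the scaled height), DSP 44.7 (0.741), EPCAM 56.1 (1.15), ESRP2 62.2 (1.42) and CLDN4 95.7 (1.55). On that scale VIM had 1.19 and ZEB1 1.02, so these lists overlap. The counted peaks of CDH1 and CLDN4 carried H3K27Ac alone, while those of DSP, EPCAM and ESRP2 carried H3K4me3 as well. CDH3, CLDN3, CLDN7, OVOL1, RAB25, ELF3 and ST14 had none. Inside the genes, CDH1 held 8 peaks (tallest 78.3), CDH3 4 (54.9), EPCAM 4 (82.8), CLDN4 3 (132) and ST14 1 (148).

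Luminal genes were at 6 of 12 and basal keratinocyte genes at 2 of 9. The estrogen and progesterone receptor genes ESR1 and PGR and the luminal regulator GATA3 had no peak near a start site, while 10 peaks lay within ESR1 (tallest 101), 3 within GATA3 (69.3) and 0 within PGR. KRT8 and KRT18 shared 1 peak of 106, TFF1 had 96.5, ERBB2 60.5, FOXA1 51.5 and XBP1 33.2. Of the basal genes LAMB3 (106) and COL17A1 (101) had a peak, and the keratin genes KRT5, KRT14, KRT17, KRT6A and KRT6B and the integrin gene ITGB4 had none. TP63 had none near a start site and 6 inside the gene, the tallest at 120. Peaks inside a gene were common and are no mark of these lists: 42.7% of protein-coding genes held at least 1, and in the longest of 4 length classes 35.6% held at least 4 and 8.75% at least 10. PTPRC, from the list of other tissues, held 4, the tallest at 154.

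Genes of AP-1 factors had a peak near a start site in 7 of 8 cases. JUN had the tallest (123, or 1.79 on the scaled height), ATF3 had 79.3 (1.15), FOSL1 75.7 (1.15) and FOSL2 60.7 (1.25). FOSB had 67.4 (0.914), JUND 57.8 (0.784) and JUNB 51.0 (0.692), all under the median of their chromosome, and FOS was without one, 19.3 kb from the nearest. YAP and TEAD genes and their known targets had one in 8 of 10 cases, over a wide range of heights. The coactivator genes YAP1 and WWTR1 reached 136 and 141 (2.07 and 2.19 on the scaled height). The YAP1 peak carried all 3 marks, whereas that of WWTR1 carried H3K4me1 and H3K27Ac without H3K4me3. The targets ANKRD1 and AXL had 151 and 148 (2.14 and 2.01). The targets CCN1 and CCN2 had 60.6 and 79.6 (0.882 and 1.32), TEAD1 had 72.5 (1.105) and LATS2 had 23.8 (0.48). TEAD4 and AMOTL2 had none. Inflammatory genes were at 6 of 12. The chemokine gene CXCL8 had the tallest, 152, CSF2 had 93.0, IL6 63.1, CXCL2 56.7, IL1B 55.6 and IL1A 47.5, and CXCL1, CXCL3, CCL2, CCL20, LIF and IL11 had none.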

How the data were processed

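The authors aligned reads to GRCh37 (hg19) with BWA, filtered them with Samtools and called peaks against input with FindPeaks, keeping those significant against it. Both FAIRE samples are combined in the deposited list. The submitters' processing notes also name TopHat and HOMER. The deposited height of a FAIRE peak is a signal, with no scaling to depth stated. The deposited histone score, from MACS with p at or under 1e-05, is 10 times the −log10 of p. Position followed GENCODE v44lift37, with start sites before transcript ends, exons, introns and intergenic sequence. Overlaps needed 1 shared base and were checked on simulated intervals with bedtools 2.31.1. Tables used numpy 2.4.6, pandas 2.3.3 and scipy 1.17.1, samtools 1.23.1 and matplotlib 3.10.9. Peaks were described without tests. Alternatives changed the start-site window, transcripts, overlap rule, histone threshold, height minimum, spacing measure and motif window. Named items were the members of 9 gene lists, the 10 tallest peaks, the tallest of each position and mark class, the 5 tallest without a mark, the 5 densest windows of 50 kb and the longest distance between neighbours apart from centromeres. Members and lists were chosen with earlier results of these data known.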

Additional observations from a re-analysis of the deposited data

How the results depend on the processing

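No paired analysis was possible because the replicates of every assay were combined into a single list. Intervals cover counting error, peaks are not replicates, and the depth behind a height is unknown. Of the values under alternatives, 33 stayed inside the 95% interval of the reported value, 40 left it and 0 changed direction. A change of direction was defined only for ratios, of heights or of motif shares, and could not occur for single shares or the median distance. Where the construction of an alternative does not show it, the cause was not tested.

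With peaks of a width between the quartiles, the start-site median was 1.11 times the intron and 1.12 times the intergenic median (reported 1.07 and 1.07), and the median with H3K4me1 and H3K27Ac was 1.44 times and that with H3K4me3 and H3K27Ac 1.36 times the median without a mark (1.48 and 1.31). On chromosomes 1 to 22 the ratio for H3K4me1 and H3K27Ac was 1.45. Histone peaks with p at or under 1e-10 gave 1.27 for H3K4me3 and H3K27Ac, 27.6% of peaks without a mark (19.6%) and 31.9% with H3K4me1 and H3K27Ac (41.2%).

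The start-site share (18.4%) was 21.99% with 1 kb on each side, 17.7% with 500 bp on each side and 14.9% with protein-coding transcripts only, and the last 2 gave intergenic shares of 26.95% and 41.6% (26.3%). Among peaks at or above the median height, 8.30% had no mark, 52.2% had H3K4me1 and H3K27Ac, 20.2% lay at start sites and 25.5% were intergenic, the median distance was 34351 bp, 24.3% of genes had a peak near a start site, and 46.9% of H3K4me1, 26.8% of H3K4me3 and 44.01% of H3K27Ac peaks had a FAIRE peak. Requiring the FAIRE centre in the histone peak gave 70.2% for H3K4me1 and 44.2% for H3K4me3. The median distance (20548.5 bp) was 19575 bp between facing edges and 24463.5 bp with touching subpeaks joined. The share of genes (39.2%) was 36.9% within 500 bp and 42.9% within 2 kb. The central 200 bp and 500 bp gave AP-1 in 29.4% and 50.6% (39.2%), at 4.70 and 3.30 times the share away (4.13), and CTCF in 1.78% and 2.997% (2.39%), with 12.2 times the share away in the central 500 bp (16.8).

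Alternatives chosen after seeing the data were the scaled height, with ratios of 1.44 for H3K4me1 and H3K27Ac and 1.25 for H3K4me3 and H3K27Ac, a minimum at the chromosome median, with 8.71% without a mark and 52.5% with H3K4me1 and H3K27Ac, and windows away that share no base with a FAIRE peak, with 4.44 times for AP-1. Counting repeated peaks once, also chosen then, left the height ratios and the median distance inside their intervals.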

Other observations

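The median distance from a FAIRE peak to the nearest annotated start site was 7196 bp, and to the nearest protein-coding start site 16847 bp. For the tallest of 10 height classes the distance to a protein-coding start site was 15383 bp. In a pair of neighbours within 2 kb the taller peak was at the median 1.42 times the lower, and over 200 kb apart it was 1.38 times. One H3K27Ac peak held 12 FAIRE peaks, the most of any histone peak. At least 2 FAIRE peaks were found in 17.9% of H3K4me1 peaks, 15.3% of H3K27Ac peaks and 8.30% of H3K4me3 peaks.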
